A study of Homo sapiens with 6 samples.

Results

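The genes described here were counted in 1 genotype of KLE cells and at or near 0 in the other. KLE is an established human endometrial carcinoma line, and the deposited table lists 414 genes counted in parental and LATS1/2-KO cells. A gene was taken as on in LATS1/2-KO cells when its counts over the 3 parental libraries summed to at most 6 and each of the 3 LATS1/2-KO libraries held at least 5. It was taken as off when the same limits held with the genotypes exchanged. By these limits 20 genes were on (4.83% of those listed) and 27 were off (6.52%), 47 of 414 in all, after 3 genes of other families (HSD17B2, AKR1C4 and MT1A) had been set aside by name. The raw counts of the contrast itself chose these genes, so their difference between genotypes is a description and carries no test.

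The parental group was wild type, and the LATS1/2-KO group carried CRISPR-Cas9 knockouts of both LATS1 and LATS2, with no further treatment named for either group. The study grew its knockout lines from single cells, and the sources used here do not say whether the 3 LATS1/2-KO libraries came from 1 clone or several, so clonal history cannot be told apart from the genotype. Each group had 3 libraries, and the labels do not say whether these came from separate cultures, so the spread between them may be technical. The LATS1/2-KO libraries are numbered 5, 6 and 7 here, as in the table. The targeted genes LATS1 and LATS2 were not analysed here, so no count below checks the genotype.

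LATS1 and LATS2 are the kinases of the Hippo pathway that phosphorylate the coactivators YAP and TAZ and hold them out of the nucleus. Without them YAP and TAZ enter the nucleus and, with TEAD transcription factors, raise genes such as CCN1 and ANKRD1. A gene at 0 counts in an RNA-seq library is not shown to be silent, since its transcripts may fall below the depth of the library.

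Counts summed over the listed genes were 4064052, 3252765 and 3008692 in parental replicates 1, 2 and 3, and 1862422, 613161 and 1180727 in LATS1/2-KO libraries 5, 6 and 7. The genes that are on or off took between 0.0423% and 0.135% of these totals. Levels are given below as counts, or as scaled counts, which are counts divided by a scale for each library (0.995 to 1.47 in the parental libraries, 0.497 in LATS1/2-KO library 6, 0.831 in library 7 and 1.33 in library 5). An equal count in LATS1/2-KO library 6 therefore stood for a higher level than in any other library.

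1 library stood apart. Parental replicate 1 held counts for many genes that were at 0 in replicates 2 and 3: only 31 listed genes were at 0 in it, against 71 and 75 in replicates 2 and 3 and 39 to 41 in the LATS1/2-KO libraries. A further 29 listed genes met every limit for on except that replicate 1 held 9 to 2272 counts, while replicates 2 and 3 held 0. MAOA, which breaks down monoamines, had 2272 counts in that replicate, none in either other parental library, and LATS1/2-KO counts of 33, 8 and 70. In 9 of these 29 genes the scaled count in replicate 1 was above every LATS1/2-KO library. Without parental replicate 1 the limits gave 56 genes on and 32 off; leaving out a library can only loosen these limits, so no gene could be lost.

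**Figure D1:**
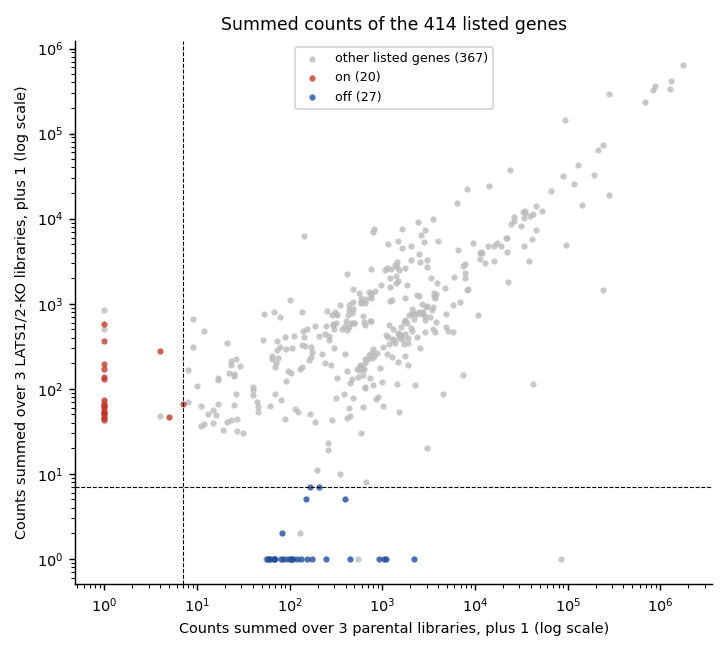
Counts summed over 3 parental libraries (x axis) against counts summed over 3 LATS1/2-KO libraries (y axis), each plus 1 on a log scale, for 414 listed genes; dashed lines mark a sum of 6. Red points are the 20 genes that are on, blue points the 27 that are off; grey points beyond the lines failed the limit on single libraries or were set aside by name.

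Of the genes that are on, 17 had 0 counts in all 3 parental libraries, and the parental counts of the 20 genes summed to 10, 0 and 3 in replicates 1, 2 and 3. Of the genes that are off, 22 had 0 counts in all 3 LATS1/2-KO libraries, and the 27 summed to 7, 4 and 10 counts there. Where a group was at 0, a fold is given as a lower bound against a floor of 3 counts over the group. These folds, and the ratios given for other genes that are on or off, use counts summed over a group. Each sum was divided by the summed scales of that group, so the result can differ from a ratio of mean scaled counts. The bounds ran from 19.5 to 270 for the 17 genes that are on, with a median of 28.8, and from 13.4 to 527 for the 22 that are off, with a median of 25.3. These folds, intervals and floors cover counting error only, under the scale between groups used here. An alternative scale (TMM over the listed genes) moved fold changes by a median of 1.59-fold towards higher in LATS1/2-KO cells. It would make the bounds smaller for genes that are off and larger for genes that are on. In bulk RNA, more cells with a transcript and more transcript per cell cannot be told apart.

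Both classes were lowly expressed. Per kilobase of exon, the median scaled count in LATS1/2-KO cells was 8.08 for the genes that are on, against 40.3 for the other 179 listed genes with a higher mean in LATS1/2-KO cells. In parental cells it was 12.1 for the genes that are off, against 174 for the other 188 genes with a lower mean in LATS1/2-KO cells. The median coefficient of variation (SD over mean, n = 3) was 44.1% for genes that are on, against 20.4% for the other higher genes, and 62.3% for genes that are off, against 19.2% for the other lower genes. Low counts vary more by counting alone, and the part of depth in these values was not tested.

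**Figure D2:**
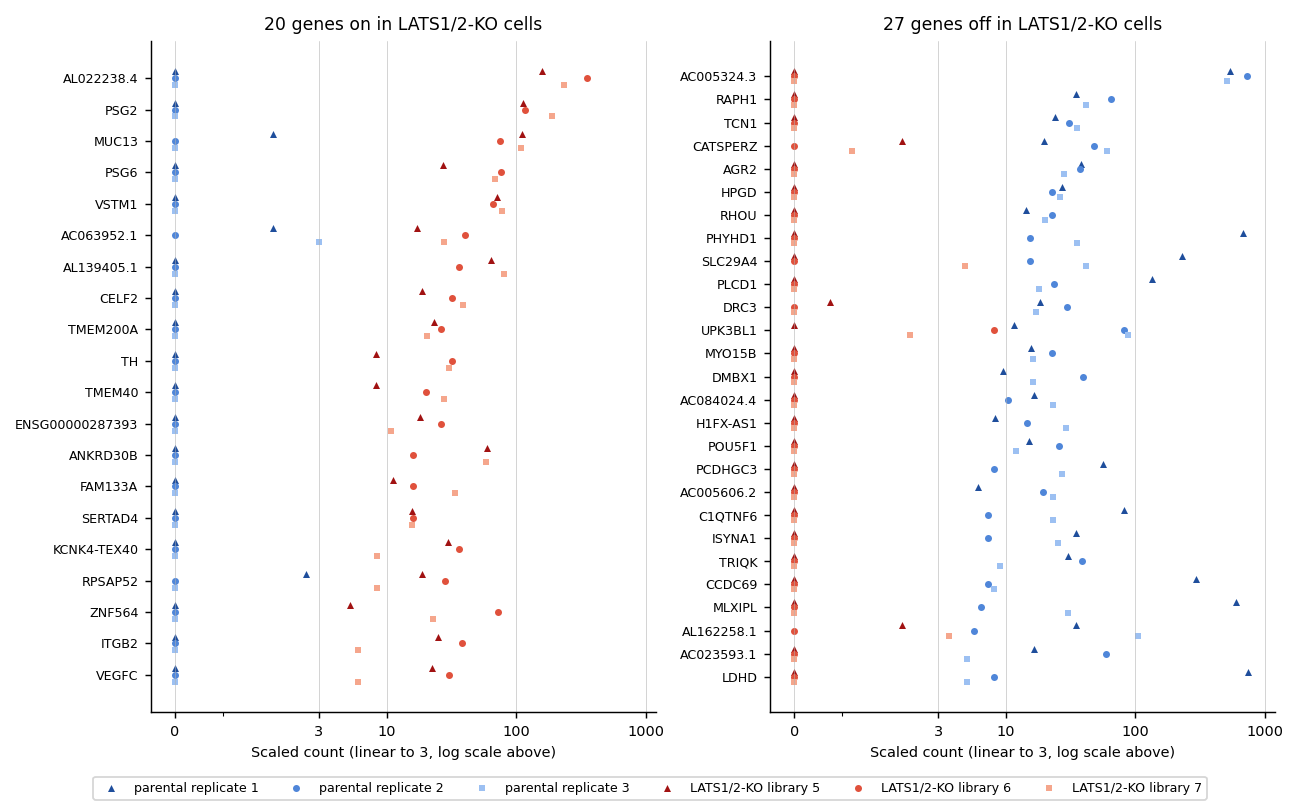
Scaled counts (x axis, linear to 3 and log above) of the 20 genes on (left) and the 27 genes off (right) in each parental library (blue) and LATS1/2-KO library (red). Single points are libraries; at the right, 7 genes show parental replicate 1 far above replicates 2 and 3.

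Among secreted and surface proteins that were on, 2 belonged to the pregnancy-specific glycoproteins (PSGs), immunoglobulin-like proteins that the placental trophoblast secretes in bulk. PSG2, at chr19:43064211-43083045 (GRCh38, minus strand), had 0 counts in each parental library and 151, 58 and 158 in LATS1/2-KO libraries 5, 6 and 7, a scaled level at least 170-fold higher. PSG6 had 0 counts in each parental library and 36, 38 and 57 LATS1/2-KO counts, at least 60.8-fold higher. Each LATS1/2-KO library held both transcripts, as the limits require, and no parental library held a count of either. PSG genes are close copies of each other. Of the stretches of 150 bases in the annotated transcripts of PSG2, 1.40% were identical to a stretch of another gene, and of PSG6 0.184%. Near matches were not counted, so the assignment of reads between PSG genes was not tested.

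Of the 11 PSG genes looked for, 4 were listed, and the other 2, PSG4 and PSG5, missed the limits through parental counts. PSG4 had 16, 25 and 11 parental counts and 415, 118 and 223 LATS1/2-KO counts. PSG5 had 0, 8 and 0 parental counts and 349, 133 and 181 LATS1/2-KO counts. The 4 PSG genes together had 16, 33 and 11 parental counts and 951, 347 and 619 LATS1/2-KO counts, a sum that holds the 2 genes chosen by these counts. None of the 10 other trophoblast markers looked for, such as the hormone subunit CGA and the fusion protein ERVW-1, was listed, and they were not analysed here.

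MUC13, a transmembrane mucin of glandular epithelium, had 3, 0 and 0 parental counts and 147, 37 and 90 LATS1/2-KO counts. Its ratio, from summed counts over summed scales, was 127 (exact 95% counting interval 43.0 to 620). On the scaled counts its 3 LATS1/2-KO libraries lay close together, at 74.5 to 110. VSTM1, an inhibitory receptor known from myeloid cells, had 0 parental counts and 95, 33 and 65 LATS1/2-KO counts, at least 89.5-fold higher. These scaled to 66.4 to 78.2, one of the narrowest spreads among the genes that are on (coefficient of variation 8.24%).

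ITGB2, the beta-2 integrin chain that leukocytes pair with an alpha chain to adhere to endothelium, had 0 counts in each parental library and 33, 19 and 5 LATS1/2-KO counts. It lies at chr21:44885953-44931989 (GRCh38, minus strand) and was at least 26.4-fold higher. Library 7 held the fewest counts and put ITGB2 exactly at the lower limit of 5, and the coefficient of variation was 70.4%. Of its exonic bases, 4.46% overlap ITGB2-AS1 on the opposite strand. None of the 4 alpha chains looked for was listed. Of 13 leukocyte markers, 2 were listed, ITGB2 and the cytokine receptor chain IL2RG, and the pan-leukocyte marker PTPRC was not. IL2RG, the more abundant of the pair, had 19, 0 and 2 parental counts and 91, 36 and 25 LATS1/2-KO counts, and did not pass the test (log2 fold change 3.46 ± 1.49 (SE), edgeR adjusted p = 0.0818). Without parental replicate 1 its log2 fold change was 5.74 (adjusted p = 0.00476). The 2 markers summed to 19, 0 and 2 parental and 124, 55 and 30 LATS1/2-KO counts, a sum holding ITGB2, chosen by these counts. Their part in the results was not tested.

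VEGFC, the ligand that drives growth of lymphatic vessels, had 0 parental counts and 30, 15 and 5 LATS1/2-KO counts, at least 23.2-fold higher. It was the single listed gene of 8 VEGF ligands and receptors. TH, tyrosine hydroxylase, which makes the first step of catecholamine synthesis, had 0 parental counts and 11, 16 and 25 LATS1/2-KO counts, and was the single listed gene of 4 in that pathway. As with ITGB2, library 7 held the lowest count of VEGFC, whereas it held the highest of TH.

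Inside the cell, CELF2, an RNA-binding regulator of splicing, had 0 parental counts and 25, 16 and 32 LATS1/2-KO counts, at least 33.9-fold higher. The zinc finger gene ZNF564 had 0 parental counts and 7, 36 and 19 LATS1/2-KO counts, the widest spread among the genes that are on (coefficient of variation 104%). SERTAD4, of the SERTA-domain family, had 21, 8 and 13 LATS1/2-KO counts, which scaled to the narrowest spread (1.54%). The other protein-coding genes, beside AL022238.4 described further on, were ANKRD30B, an ankyrin-repeat gene (80, 8 and 49 counts in libraries 5, 6 and 7), FAM133A, a cancer/testis gene (15, 8 and 28), and the transmembrane proteins TMEM200A (31, 13 and 17) and TMEM40 (11, 10 and 23), all at 0 in the parental libraries.

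Of the 20 genes that are on, 15 were annotated as protein-coding (75.0%), against 323 of the other 367 listed genes (88.0%). AL139405.1, a long intergenic RNA on chromosome 10, had 0 parental counts and 86, 18 and 67 LATS1/2-KO counts. AC063952.1, a transcribed pseudogene, had 3, 0 and 3 parental counts and 23, 20 and 23 LATS1/2-KO counts, a ratio of 15.3 (exact 95% counting interval 6.67 to 43.2). A gene known only by the identifier ENSG00000287393 had 24, 13 and 9 LATS1/2-KO counts and was not found in the annotation used. All 3 were counted in every LATS1/2-KO library, as the limits require.

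RPSAP52, a pseudogene transcribed from the opposite strand at HMGA2, had 4, 0 and 0 parental counts and 25, 14 and 7 LATS1/2-KO counts, a ratio of 16.0 (exact 95% counting interval 5.84 to 61.2). HMGA2 encodes a chromatin protein of embryonic and tumour cells. It had 7, 2 and 7 parental counts and 42, 17 and 68 LATS1/2-KO counts. Its antisense RNA HMGA2-AS1 had 0, 7 and 0 parental counts and 93, 13 and 60 LATS1/2-KO counts. On scaled counts HMGA2 and HMGA2-AS1 were each higher in every LATS1/2-KO library than in any parental library, as were 35.7% of all listed genes. RPSAP52 shares no exonic base with another annotated gene on either strand.

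AGR2, a disulphide isomerase that mucin-producing cells need, was off, with 56, 46 and 28 counts in parental replicates 1, 2 and 3 and 0 in each LATS1/2-KO library, at least 31.1-fold lower. HPGD, the enzyme that inactivates prostaglandins, had 40, 28 and 26 parental counts and 0 in each LATS1/2-KO library, at least 22.5-fold lower. TCN1, a vitamin B12 carrier of secretions, had 35, 38 and 35 parental counts and 0 in each LATS1/2-KO library, at least 25.9-fold lower. All 3 parental replicates held similar levels of these genes, with coefficients of variation of 9.66% to 19.1%. AGR2 and HPGD were the 2 listed genes of 10 endometrial epithelial markers looked for, and the others were not analysed here. Together AGR2 and HPGD had 96, 74 and 54 parental counts and 0 in each LATS1/2-KO library, a sum of genes chosen by these counts.

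POU5F1, the homeobox factor OCT4 of pluripotent and germ cells, had 22, 32 and 12 parental counts and 0 in each LATS1/2-KO library. It lies at chr6:31164337-31180731 (GRCh38, minus strand), and its scaled level was at least 15.8-fold lower. Parental scaled counts were 17.6 ± 7.23 (SD, n = 3), with replicate 2 the highest. POU5F1 has processed copies elsewhere in the genome, and 1.81% of its stretches of 150 bases were shared with another gene; TCF19 on the opposite strand overlaps 8.56% of its exonic bases. None of the other 7 pluripotency genes looked for, NANOG and SOX2 among them, was listed, and they were not analysed here.

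Of the cytoskeletal and signalling genes, RAPH1, which recruits actin polymerases to the leading edge, had 51, 80 and 41 parental counts and 0 in each LATS1/2-KO library. RHOU, a small GTPase, had 21, 28 and 20 parental counts and 0 in each LATS1/2-KO library. The 2 genes were at least 41.2-fold and 16.5-fold lower. Exons of ABI2 on the opposite strand cover 75.8% of the exonic bases of RAPH1. MYO15B, an unconventional myosin, had 23, 28 and 16 parental counts, and PCDHGC3, a protocadherin, had 82, 10 and 27, with 0 in each LATS1/2-KO library. PCDHGC3 shares 34.7% of its stretches of 150 bases with other genes of the protocadherin gamma cluster.

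The genes of cilia and sperm were DRC3, a subunit of the dynein regulatory complex, and CATSPERZ, a subunit of the sperm calcium channel. DRC3 had 27, 37 and 17 parental counts and 1, 0 and 0 LATS1/2-KO counts. Its ratio, from summed counts over summed scales, was 58.2 (exact 95% counting interval 10.2 to 2327). The homeobox gene DMBX1 had 14, 49 and 16 parental counts, and TRIQK, a small membrane protein gene, had 44, 48 and 9, with 0 in each LATS1/2-KO library. ISYNA1, which makes inositol phosphate from glucose phosphate, had 51, 9 and 25 parental counts and 0 in each LATS1/2-KO library. On scaled counts the parental replicate farthest from the others was replicate 3 for TRIQK and replicate 2 for DRC3, DMBX1 and ISYNA1.

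The non-coding transcripts were AC084024.4, H1FX-AS1, AC005606.2, AC023593.1 and AL162258.1. The first 4 had 5 to 74 counts in single parental libraries and 0 in each LATS1/2-KO library. AL162258.1 had 51, 7 and 105 parental counts and 3, 0 and 3 LATS1/2-KO counts. Of the 27 genes that are off, 22 were protein-coding (81.5%).

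In 7 genes that are off, parental replicate 1 held more than 4 times the mean scaled count of replicates 2 and 3. LDHD, mitochondrial D-lactate dehydrogenase, had 1088 counts in replicate 1 and 10 and 5 in replicates 2 and 3. MLXIPL, the glucose-responsive transcription factor ChREBP, had 876 counts in replicate 1 and 8 and 30 in the others. PHYHD1, a dioxygenase, had 994 counts in replicate 1 and 19 and 35 in the others. In these genes replicate 1 was far above replicates 2 and 3, which lay much closer to each other. CCDC69, a coiled-coil protein gene, had 431, 9 and 8 parental counts. SLC29A4, a monoamine transporter, had 336, 19 and 41, and the phospholipase gene PLCD1 had 197, 29 and 18. C1QTNF6, a secreted C1q-related protein, had 119, 9 and 23. SLC29A4 had 0, 0 and 4 counts in the LATS1/2-KO libraries, and the other 6 genes had 0 in each.

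The ratio of replicate 1 to the mean of replicates 2 and 3 was 113 for LDHD, 38.4 for CCDC69, 32.6 for MLXIPL, 26.8 for PHYHD1, 8.09 for SLC29A4, 6.47 for PLCD1 and 5.33 for C1QTNF6. Over the other 20 genes that are off it ran from 0.137 to 3.17, with a median of 0.754. The median coefficient of variation was 155% in the 7 genes and 44.9% in the 20. This excess, in 7 of the 27 genes that are off, was not particular to them. It was also seen in 37 of the other 188 genes with a lower mean in LATS1/2-KO cells.

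**Figure D3:**
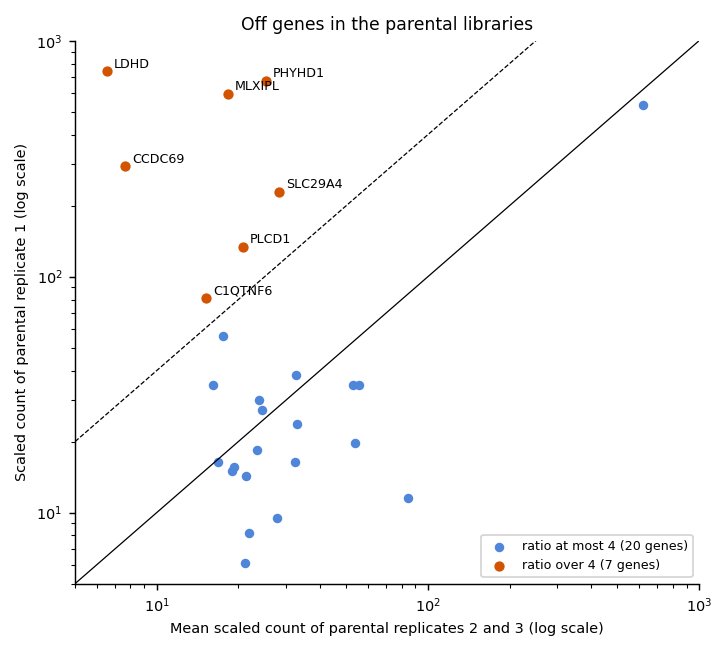
Scaled count in parental replicate 1 (y axis) against the mean of replicates 2 and 3 (x axis), both on log scales, for the 27 genes that are off; the solid line marks equality and the dashed line a ratio of 4. The 7 named genes lie above the dashed line, with ratios of 5.33 to 113.

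Over the 20 genes that are on, summed scaled counts were 826 in library 5, 1151 in library 6 and 1077 in library 7. The highest scaled count of a gene fell in library 6 for 12 genes, in library 7 for 6 and in library 5 for 2. The limit of 5 raw counts asks for the highest scaled level in library 6, so the choice of genes favours that library. Library 6 was the shallowest, with 572 counts over the 20 genes against 1103 in library 5.

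The highest summed counts of each class belonged to transcripts annotated across 2 genes. AC005324.3 runs on the minus strand of chromosome 17 (chr17:15571491-15651653, GRCh38) through exons of TRIM16, a ubiquitin ligase gene, and CDRT1. It had 788, 905 and 506 parental counts and 0 in each LATS1/2-KO library, at least 527-fold lower. AL022238.4, on the plus strand of chromosome 22 (chr22:40346529-40410054), takes in exons of ADSL, a purine synthesis enzyme, and SGSM3. It had 0 counts in each parental library and 212, 174 and 196 LATS1/2-KO counts, at least 270-fold higher. TRIM16, CDRT1, ADSL and SGSM3 were not listed and were not analysed here, so whether reads moved between these genes and the longer transcripts was not tested.

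Of the stretches of 150 bases in AL022238.4, 87.7% were shared with another gene, 64.1% with SGSM3, and in AC005324.3 44.3% were shared. AC005324.3 has an internal exon that belongs to neither TRIM16 nor CDRT1, exon 7 of 17 in transcript ENST00000455584.2, at chr17:15623481-15623632 (GRCh38, minus strand, 152 bases, coding in the annotation). The last exon also lies outside both genes and is not shown. Exon 7 is shown because a read in it can be placed in AC005324.3 and in no other annotated gene. Exon bases are in capitals and the 10 neighbouring transcript bases on each side in lower case.
AC005324.3 exon 7: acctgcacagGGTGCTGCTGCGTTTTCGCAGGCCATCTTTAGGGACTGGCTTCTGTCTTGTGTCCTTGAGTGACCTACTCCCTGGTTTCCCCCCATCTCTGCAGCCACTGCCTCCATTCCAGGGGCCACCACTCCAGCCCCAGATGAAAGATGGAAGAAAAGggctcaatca

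KCNK4-TEX40 was on and CATSPERZ off, although they overlap on the same strand of chromosome 11. KCNK4-TEX40, a non-coding readthrough transcript from the potassium channel gene KCNK4, had 0 parental counts and 40, 18 and 7 LATS1/2-KO counts. CATSPERZ had 29, 59 and 60 parental counts and 3, 0 and 1 LATS1/2-KO counts. The pair share 746 exonic bases, which is 69.3% of CATSPERZ and 27.3% of KCNK4-TEX40. A read in the shared bases could be counted for either, and the assignment of reads between them was not tested. Their counts added together were 29, 59 and 60 in the parental libraries and 43, 18 and 8 LATS1/2-KO counts. KCNK4-TEX40 shares a larger part of its exonic bases, 59.6%, with KCNK4 on the same strand. KCNK4 was not listed and was not analysed here, so the assignment of reads between it and KCNK4-TEX40 was not tested.

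Exons shared with a gene on the same strand were found for 3 of the 19 annotated genes that are on (15.8%) and 6 of the 27 that are off (22.2%), against 73 of the other 364 annotated genes (20.1%). By sequence, over 50% of the 150-base stretches were shared with another gene in AL022238.4, KCNK4-TEX40 and ZNF564 among the genes that are on, and in CATSPERZ and UPK3BL1 among those that are off. That was 3 of 19 and 2 of 27 genes, against 24 of 363 other listed genes. UPK3BL1, a uroplakin-like gene, had 98.0% of its stretches in common with other annotated genes, 84.4% with AC105052.3. Exons of AC105052.3 and AC105052.1 overlap those of UPK3BL1 on the same strand. UPK3BL1 had 17, 101 and 87 parental counts and 0, 4 and 2 LATS1/2-KO counts, which could have been split with the overlapping genes. ZNF564 shared 60.5% of its stretches, almost all of them with AC010422.6. Of the exonic bases of AL162258.1, 99.9% lay within exons of other genes on its strand, S100A13 covering 53.9% of them.

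Exons shared with a gene on the opposite strand were found for 4 of 19 genes that are on and 13 of 27 that are off (48.1%), against 128 of 364 other listed genes (35.2%). The most covered was AC005606.2, 94.7% of which lies opposite GFER. Because the sources used here do not say whether reads were counted by strand, the counts of such genes are uncertain.

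**Figure D4:**
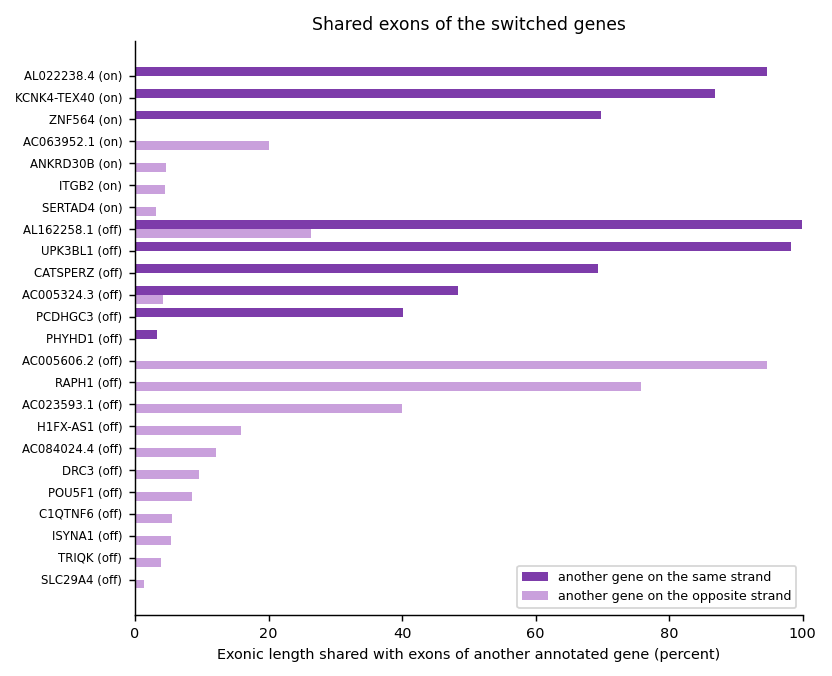
Percent of exonic length (x axis) that each gene shares with exons of another annotated gene on the same strand (dark bars) or the opposite strand (light bars), for the 24 genes with any overlap. AL162258.1, UPK3BL1 and AL022238.4 lead on the same strand, and AC005606.2 and RAPH1 on the opposite strand.

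Promoter sequence was looked at because YAP and TAZ act through TEAD factors, whose core letters are GGAATG. Promoters, 250 bases before to 50 after each start in RefSeq (GRCh38.p14), were matched for 10 genes that are on (20 promoters, 10 of them for CELF2) and 16 that are off (21 promoters). GGAATG on either strand was in 4 of 20 promoters of genes that are on (20%), in CELF2, FAM133A, MUC13 and TMEM40, and in 1 of 21 promoters of genes that are off (4.76%), in SLC29A4. Of all 35116 promoters of that length, 14.0% held it. The octamer bound by POU5F1 and its relatives, ATGCAAAT on either strand, was in 1 promoter of a gene that is on, ZNF564, in none of a gene that is off, and in 1.77% of all promoters. A match is a description of the letters and not a bound site.

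The 250 bases before the start are shown for 2 genes that are on and hold the letters, and for AGR2, off and without them. Capitals mark GGAATG or its reverse complement CATTCC. MUC13 is at chr3:124934752-124935001 (minus strand), FAM133A at chrX:93673956-93674205 (plus strand) and AGR2 at chr7:16805000-16805249 (minus strand).
MUC13: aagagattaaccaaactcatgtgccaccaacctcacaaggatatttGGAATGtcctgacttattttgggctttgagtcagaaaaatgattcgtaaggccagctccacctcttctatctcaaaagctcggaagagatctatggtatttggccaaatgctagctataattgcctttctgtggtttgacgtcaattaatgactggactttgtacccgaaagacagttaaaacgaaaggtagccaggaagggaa
FAM133A: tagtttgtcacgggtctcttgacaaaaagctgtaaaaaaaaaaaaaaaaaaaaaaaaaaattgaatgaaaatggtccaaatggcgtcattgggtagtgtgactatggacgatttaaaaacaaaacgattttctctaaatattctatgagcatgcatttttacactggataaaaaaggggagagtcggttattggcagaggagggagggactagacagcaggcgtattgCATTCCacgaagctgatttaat
AGR2: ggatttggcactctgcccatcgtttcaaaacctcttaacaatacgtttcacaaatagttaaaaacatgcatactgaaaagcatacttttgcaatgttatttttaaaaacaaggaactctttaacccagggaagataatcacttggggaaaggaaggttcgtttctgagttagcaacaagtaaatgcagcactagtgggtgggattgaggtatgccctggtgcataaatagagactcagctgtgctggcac

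The letters begin 204 bases before the start of MUC13 and 22 before that of FAM133A. MUC13 had 147, 37 and 90 LATS1/2-KO counts and FAM133A 15, 8 and 28.

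Known targets of YAP and TEAD were set beside these genes. Of 29 looked for, 17 were listed and none was on or off by the limits, since each was counted in both genotypes. By edgeR (quasi-likelihood fit, p adjusted over the 414 listed genes), 15 of the 17 rose, none fell and 2 did not pass, where 29.7% of all listed genes were called higher and 43.5% lower. The table lists genes that the study called changed on the same samples, so these calls are not independent evidence of direction. The median log2 fold change of the 17 was 1.75, against -0.35 over all listed genes. CCN1, a secreted matricellular protein, had 585, 603 and 439 parental counts and 2227, 873 and 1432 LATS1/2-KO counts, and rose by 1.96 ± 0.13 (log2, SE; adjusted p = 0.000364). ANKRD1, a nuclear ankyrin-repeat protein, rose by 3.68 ± 0.72 (adjusted p = 0.00695), and by 4.80 without parental replicate 1, which held 592 counts against 102 and 98. The 2 that did not pass were GLUL, glutamine synthetase, and GADD45A, of the stress response, both highest in parental replicate 1. GLUL had 37245, 487 and 431 parental counts, and its log2 fold change of -2.87 (adjusted p = 0.175) became 1.53 without replicate 1 (adjusted p = 0.000260). GADD45A went from 0.06 (adjusted p = 0.942) to 1.13 (adjusted p = 0.0187).

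Listed genes within 500 kb of a gene that is on or off were not chosen by the limits and were tested in the same fit across the whole table. The study had already called every listed gene changed on these samples, so calls of these neighbours are not independent evidence. HMGA2-AS1 and LINC01444 missed the limit for on narrowly, with 7 and 8 parental counts in all. Near genes that are on there were 5, PSG4 and PSG5 beside PSG2, HMGA2 and HMGA2-AS1 beside RPSAP52, and LINC01444 beside ANKRD30B. All 5 rose, and in all 5 the groups did not overlap, where 29.7% of listed genes were called higher and 35.7% were higher with no overlap. PSG4, 110 kb from PSG2, rose by 4.27 ± 0.39 (log2, SE; edgeR adjusted p = 0.000731). PSG5, 83.2 kb from PSG2, rose by 6.77 ± 1.54 (adjusted p = 0.0107). HMGA2 rose by 3.43 ± 0.82 (adjusted p = 0.0120), and HMGA2-AS1 by 4.81 ± 1.72 (adjusted p = 0.0467). LINC01444, a long non-coding RNA, had 0, 8 and 0 parental counts and 178, 55 and 79 LATS1/2-KO counts, and rose by 5.63 ± 1.64 (adjusted p = 0.0242). The parental counts of PSG5, LINC01444 and HMGA2-AS1 all lay in replicate 2, and without it their log2 fold changes were 10.98, 9.84 and 8.84, fitted against parental counts of 0 and so no bound. HMGA2-AS1 and LINC01444 lost the call when any 1 LATS1/2-KO library was left out, and HMGA2-AS1 also without parental replicate 3. Without parental replicate 1 all 5 were called higher, as were 213 of the 414 listed genes. Adjusted over 19951 protein-coding genes in place of the 414 listed, only PSG4 kept it (edgeR adjusted p = 0.0352). With that adjustment 18 of the 414 listed genes were called higher.

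Near genes that are off there were 14 listed genes. 13 of them fell and 1 rose, where 43.5% of listed genes were called lower and 44.2% were lower with no overlap. These calls were sensitive to the scale between groups. With TMM factors over the listed genes 4 of the 13 kept the call, where 84 of the 414 listed genes were called lower. With median-of-ratios factors 7 kept it, where 132 of the 414 were called lower. Adjusted over 19951 protein-coding genes 2 kept it, HLA-B and HLA-C (edgeR adjusted p = 0.0175 each). With that adjustment 14 of the 414 listed genes were called lower. Without parental replicate 1 all 14 genes were called, as were 403 of the 414 listed genes.

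Beside POU5F1 lie HLA-B and HLA-C, the heavy chains of MHC class I, at 88.8 and 88.0 kb by their annotated spans. The span annotated for HLA-B (chr6:31269491-31357188) begins within that of HLA-C (chr6:31268749-31272130), so the distance of HLA-B depends on the annotation. HLA-C had 9032, 7456 and 5731 parental counts and 2999, 1091 and 1799 LATS1/2-KO counts, and fell by 1.44 on the log2 scale (SE 0.10, edgeR adjusted p = 0.000364). HLA-B fell by 1.59 (SE 0.11, adjusted p = 0.000364). Both groups were far apart in each gene, but HLA-B and HLA-C are close copies whose reads can be split between them. The antisense RNA AL662797.1, 440 kb from POU5F1, fell by 1.61 (SE 0.48, adjusted p = 0.0253), and lost the call without parental replicate 2 (adjusted p = 0.0660), LATS1/2-KO library 6 (adjusted p = 0.0792) or library 7 (adjusted p = 0.0829).

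Around AL162258.1 lie 4 calcium-binding proteins of the S100 cluster. S100A4, the most abundant, had 279550, 224138 and 187664 parental counts and 125826, 32854 and 74332 LATS1/2-KO counts, and fell by 1.16 (SE 0.17, edgeR adjusted p = 0.00265). S100A3 fell by 2.00 (SE 0.30, adjusted p = 0.00299), S100A13 by 1.13 (SE 0.17, adjusted p = 0.00295) and S100A2 by 1.09 (SE 0.15, adjusted p = 0.00264). S100A13 shares exons with AL162258.1, so their counts are not independent.

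The other genes near genes that are off included TSPAN1, a tetraspanin 321 kb from DMBX1, which fell by 1.65 (SE 0.19, edgeR adjusted p = 0.00171). ABTB1 beside AC023593.1 fell by 1.27 (adjusted p = 0.00835), and ITGB4, the hemidesmosome integrin chain beside MYO15B, by 1.18 (adjusted p = 0.0297). ITGB4 lost the call when parental replicate 2 or 3, or library 5, was left out. IFI30, a lysosomal thiol reductase 256 kb from ISYNA1, fell by 0.98 (adjusted p = 0.00522), and MLKL, the effector of necroptosis 411 kb from LDHD, fell by 0.96 (adjusted p = 0.0111). LETM2, 155 kb from AC084024.4, had 195, 242 and 227 parental counts and 554, 212 and 355 LATS1/2-KO counts and rose by 1.19 ± 0.25 (adjusted p = 0.00884).

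**Figure D5:**
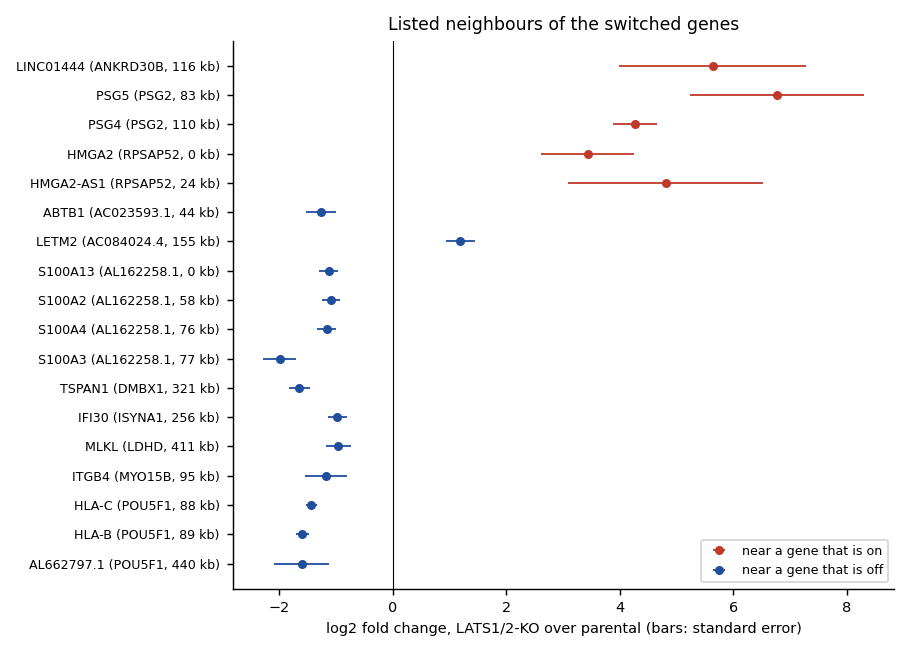
Log2 fold change of LATS1/2-KO over parental cells (x axis; bars are the standard error) for 18 listed genes within 500 kb of a gene that is on (red) or off (blue), with the nearest such gene and the distance in brackets. All 5 red points are above 3, and 12 of 13 blue points are below 0.

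AC063952.1 and RPSAP52, with 6 and 4 parental counts in all, were the nearest inside the limit for on, and HMGA2-AS1 and LINC01444, with 7 and 8, the nearest outside. By the lowest LATS1/2-KO count, ITGB2 and VEGFC at 5 were inside, and FAM124A at 4 and, tied with others at 0, AC024598.1 were outside. For off, AL162258.1 and UPK3BL1 were inside at 6 counts over the LATS1/2-KO libraries, and CXXC5 at 7 and EPHX1 at 9 were outside. By the lowest parental count, AC023593.1 and LDHD were inside at 5, and MARVELD3 at 4 and, tied with others at 0, SENP3-EIF4A1 were outside.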

How the data were processed

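RNA from KLE cells was reverse transcribed with oligo-dT, sequenced as paired reads on an Illumina NovaSeq, and processed, per the labels, with cutadapt, HISAT2, StringTie and DESeq2 on hg19. The authors deposited raw read counts per gene for 414 differentially expressed genes, and these counts were used as deposited. A further 6 per-sample columns (TPM) and the columns of the authors' own fold changes and p-values were not used. Columns of parental cells were matched to replicates and those of LATS1/2-KO cells to the group. The genes on and off, the gene lists and the limits were chosen with earlier results of these data known, from the study's own tables among others.

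Libraries were scaled within groups by the median ratio to the geometric mean (over genes reaching 50 counts throughout the group), and between groups by the centre of the widest gap in log2 ratios (199 genes, gap width 2.00), since the table leaves out small changes. The gap came from parental replicates 2 and 3. Tests used edgeR 4.0.16 in R 4.3.3 (glmQLFit, glmQLFTest; Benjamini-Hochberg over the 414 genes, threshold 0.05), with DESeq2 1.42.0 as an alternative. On simulated counts for this comparison (414 genes) the fit called 199 of 200 genes changed by 2 on the log2 scale, and 5 of 214 unchanged ones. The simulation gave every gene the same dispersion of 0.03 and was fitted with the scales that made it. It therefore does not cover the excess in parental replicate 1, the wider spread of low counts or an error in the scale between groups. Gene types and positions came from GENCODE 29 (GRCh38), which held 410 of the 414 identifiers. Library-level values were given for ITGB2, POU5F1, the 8 genes of each class with the highest lowest count, those sharing a family, exons or a 500 kb span with another listed gene, and those with an excess in parental replicate 1. Further genes named were chosen after their values were seen. The depth of the whole libraries is unknown here. Values of 1 gene near a gene that is off are not reported here, though it is in the counts.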

Additional observations from a re-analysis of the deposited data

How the results depend on the processing

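Of the 20 genes that are on, 11 were left when each LATS1/2-KO library had to hold at least 10 counts, and leaving out 1 library at a time gave 20 to 56, with 56 without parental replicate 1. The 27 genes that are off gave 27 to 32 on leaving out 1 library. Leaving out a library can only loosen the limits, so neither count could fall. With that limit of 10 counts 18 genes were off. Other limits gave 18 to 29 genes on and 23 to 30 off.

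Of the 5 genes near those that are on, 3 to 5 were called higher on leaving out 1 library (3 without any 1 LATS1/2-KO library), 1 with adjustment over 19951 protein-coding genes, and 3 lay within 100 kb. Of the 13 called lower near those that are off, 11 to 13 stayed on leaving out 1 library, 4 under TMM, 7 under median-of-ratios factors, 2 with adjustment over protein-coding genes, and 8 lay within 100 kb. That last count includes HLA-B by its annotated span. The direction was the same under every alternative for each of these genes and for LETM2, which rose. TMM moved all log2 fold changes by a median of 0.67 and median-of-ratios factors by 0.52; the cause was not tested. Of 414 genes, 123 rose and 180 fell in the fit reported (40.6% of calls higher), 139 and 84 under TMM (62.3%), 141 and 132 under median-of-ratios factors (51.6%), 133 and 179 with DESeq2, and 213 and 190 without parental replicate 1 (52.9%). Adjusted over protein-coding genes 18 rose and 14 fell.

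No paired analysis was possible because numbers 5, 6 and 7 name the knockout columns while the labels number those replicates otherwise. The table holds only genes called changed on these samples, so shares of calls are not rates over the genome.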

Other observations

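Several listed genes were counted in only part of the libraries of the genotype where they were high, and so missed the limit of 5 counts in each library there. SENP3-EIF4A1, annotated as a readthrough transcript of SENP3 and EIF4A1, had 0, 12532 and 73021 counts in parental replicates 1, 2 and 3 and 0 in each LATS1/2-KO library. AL136295.1 had 844 counts in LATS1/2-KO library 5 and 0 in all 5 other libraries, and ARPIN-AP3S2, named for 2 neighbouring genes, had 499 in library 5 and 0 elsewhere. AL662899.1 had 69 counts in LATS1/2-KO library 6 and 0 elsewhere. These values separate libraries of 1 genotype from each other. UBE2F-SCLY, another gene named for 2 neighbours, had 0, 58 and 69 parental counts and 0, 0 and 1 LATS1/2-KO counts, and TMEM102 had 0, 32 and 28 parental counts and 0 in each LATS1/2-KO library. In each of these last 2 genes parental replicate 1 was at 0.

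The 29 genes described above met every limit for on except in parental replicate 1, and were at 0 in replicates 2 and 3. Among them, MME, the surface peptidase neprilysin that marks endometrial stroma, had 1903 counts in replicate 1 and LATS1/2-KO counts of 205, 51 and 84. RASSF4, a Ras-association gene, had 260 counts in replicate 1, none in either other parental library, and LATS1/2-KO counts of 7, 6 and 5. FGF13, a fibroblast growth factor homologue, had 9, 0 and 0 parental counts and 49, 29 and 30 LATS1/2-KO counts. MAMDC2, an extracellular matrix protein gene, had 11, 0 and 0 parental counts and 275, 88 and 117 LATS1/2-KO counts. In the first 2 genes replicate 1 was the highest of the 6 libraries, and in the last 2 the LATS1/2-KO libraries were.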
